A study of Mus musculus and Homo sapiens with 56 samples.

Results

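The mitochondrial genome of mouse embryonic stem cells is described here through its own transcripts. The members were the rows of the RNA-seq count table whose gene name starts with mt-, 37 of 52459 genes: 13 messenger RNAs, 2 ribosomal RNAs and 22 transfer RNAs. Each row was assigned to a strand as the table gives it, with plus called heavy-strand (28 genes, transcribed from the heavy-strand promoter) and minus called light-strand (9 genes). RNA-seq compared 2 libraries of wild-type (WT) E14TG2a cells, a mouse embryonic stem cell line, with 2 libraries of E14TG2a cells labelled D395A, a substitution in the catalytic centre of METTL3, which writes most N6-methyladenosine (m6A) of messenger RNA. Both were untreated and grown on gelatin with MEK and GSK3β inhibitors and LIF, and the labels do not say how the D395A line was made or whether it is 1 clone. Antibody-enriched m6A peaks on the mitochondrial genome, chrM, were taken from 1 list of WT and 1 list of D395A stem cells and from 6 lists of HEK293T cells, a human embryonic kidney line. The HEK293T cells had been infected with lentivirus for a short hairpin against GFP (control), ALKBH5 or FTO, both demethylases that act on m6A, and selected with puromycin, with 2 lists each.

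Mitochondrial RNA is made by the polymerase POLRMT, with TFAM and TFB2M at the promoters and TEFM in elongation, as long transcripts of each strand that are cut apart at the transfer RNAs. The heavy-strand transcript holds most of the messenger RNAs and both ribosomal RNAs, while the light-strand transcript holds mt-Nd6, some transfer RNAs and much non-coding RNA. LRPPRC with SLIRP holds heavy-strand messenger RNAs stable, and PNPT1 with SUPV3L1 breaks mitochondrial RNA down, the non-coding light-strand RNA included.

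Library totals were 13953069 and 19246342 counts for WT and 12743677 and 18151353 for D395A. The labels do not say that libraries came from separate cultures, so p-values measure only the spread between these libraries. Mettl3 itself had 36.2 and 35.5 CPM (counts scaled to a common library size) in WT, against 30.6 and 33.9 in D395A, and gene counts cannot show the substitution. WT replicate 1 stood apart in mitochondrial ribosomal RNA, with 44.0 CPM against 3.72 to 7.89 CPM in the other libraries, and in how counts fell between some mitochondrial genes and their nuclear copies, so results that rest on it are given with and without it. Each of 8 stem cell markers was detected in every library, with a summed level of 5889 and 5777 CPM in WT and 2678 and 2676 CPM in D395A. Fibroblast markers summed to between 7.44 and 10.7 CPM over the 4 libraries. Among them Dcn was at 0 in both WT libraries against 2.13 and 1.65 CPM in D395A. Col1a1 went the other way, at 4.11 and 4.02 against 1.45 and 1.65 CPM. Primitive endoderm markers summed to 18.7 and 18.8 CPM in WT against 28.8 and 32.4 CPM in D395A, with Dab2 at 4.41 and 4.94 against 20.5 and 24.9 CPM and Gata4 the other way, at 8.14 and 7.99 against 1.45 and 1.86 CPM. Neural markers summed to 65.0 and 58.0 against 71.7 and 70.7 CPM, within which Tubb3 went from 43.6 and 39.9 to 22.4 and 23.0 CPM and Pax6 from 0.374 and 0.376 to 15.1 and 16.1 CPM. Mesoderm markers summed to 39.5 and 34.7 against 4.72 and 4.89 CPM. The part of these marker differences in the values below was not tested, and in bulk RNA fewer cells of a type and less RNA per cell cannot be told apart.

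D395A cells had higher scaled counts on the light-strand genes of the mitochondrial genome, while heavy-strand messenger RNAs moved less and in both directions. Whether the counting used strand is not known, so these counts are not shown to be light-strand RNA alone. The light-strand messenger RNA mt-Nd6 was 3.18-fold higher, and the 8 light-strand transfer RNA genes, summed whatever the filter, were at 4.86 and 4.83 CPM in WT and 54.0 and 39.8 CPM in D395A. Of the 28 members that passed the filter on low counts, 19 were called higher and 5 lower in D395A (edgeR quasi-likelihood test, Benjamini-Hochberg adjusted p under 0.05). Over all 17778 tested genes, 36.8% were called higher and 34.3% lower, so that a call in one direction was common. Values of the 2 genotypes did not overlap for 23 of the 28 members, against 85.1% of all tested genes. Of the 9 light-strand genes, mt-Nd6, mt-Tq and mt-Tp were over the filter in both WT libraries and were called higher, with log2 fold changes of 1.67, 2.76 and 2.42, beside a median of 0.0029 over all tested genes. mt-Ts1 was over it in 1 WT library and both D395A libraries, so it needed its D395A level to pass. The other 5, mt-Ta, mt-Tn, mt-Tc, mt-Ty and mt-Te, passed only through D395A, so that a higher call was built into their selection. The calls of these 5 and of mt-Ts1 among the 19 are a description. Of the 12 heavy-strand messenger RNAs, 5 were called higher, 3 lower and 4 neither way, with a median log2 fold change of 0.15 and a range from -0.58 to 0.71. The calls of mt-Nd6, mt-Tq and mt-Tp held with each library left out and under every other setting tried.

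**Figure D1:**
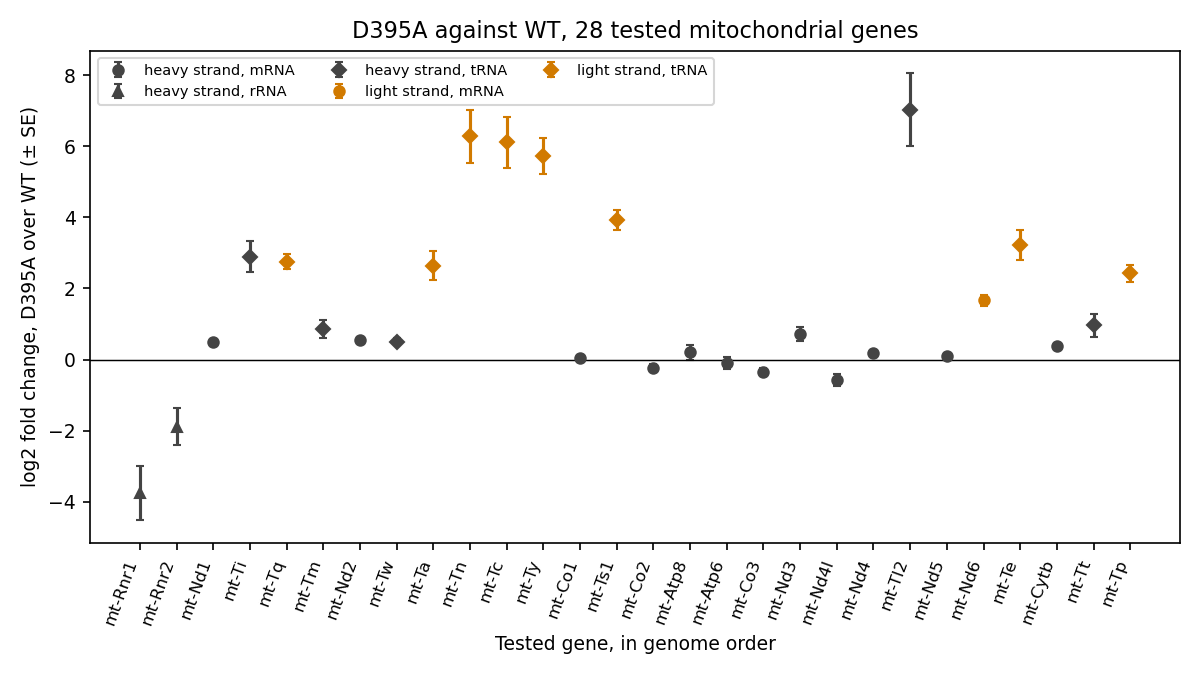
Log2 fold change of D395A over WT (vertical axis, bars are the standard error of the edgeR estimate) for the 28 tested mitochondrial genes in genome order, coloured by strand and shaped by class. The 9 light-strand genes lie between 1.67 and 6.28, and the heavy-strand messenger RNAs lie between -0.58 and 0.71. Of the light-strand genes, 5 were tested only through their D395A level, and mt-Ts1 was over the filter in only 1 WT library. The estimates of mt-Tn, mt-Tc, mt-Ty and mt-Tl2 rest on 0 to 3 WT counts and have wide error.

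Mitochondrial rows took a small share of all counts. They held 0.918% of counts in WT replicate 1 (95% Wilson interval 0.913 to 0.923) and 0.966% in WT replicate 2 (0.962 to 0.970). In D395A the share was 1.26% in replicate 1 (1.25 to 1.26) and 1.12% in replicate 2 (1.11 to 1.12). Both D395A libraries were above both WT libraries, a mean of 1.19% ± 0.0994 (SD, n = 2) against 0.942% ± 0.0336 (SD, n = 2). The exact two-sided permutation test gave p = 0.333, the smallest value that 2 against 2 libraries allow. The intervals cover counting error only.

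mt-Nd6, the single light-strand messenger RNA, encodes a membrane subunit of complex I of the respiratory chain and lies at chrM 13552 to 14070 (mm10, minus strand). Its level was 49.98 and 64.1 CPM in WT and 220 and 146 CPM in D395A, a log2 fold change of 1.67 ± 0.15 (SE; edgeR adjusted p = 1.50e-07), or 3.18-fold. The D395A libraries lay above the WT libraries without overlap. On the heavy strand it is flanked by mt-Nd5 and mt-Cytb, and with mt-Nd5 it shares 14 bases on opposite strands. Per kilobase, mt-Nd6 amounted to 9.70% and 11.9% of the mean of mt-Nd5 and mt-Cytb in WT and to 33.4% and 24.1% in D395A. The rise of mt-Nd6 was thus also present relative to its neighbours, in both D395A libraries.

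The mean summed level of the light-strand transfer RNA genes differed 9.69-fold between the genotypes. Per kilobase they amounted to 1.02% and 0.970% of the heavy-strand messenger RNAs in WT and to 9.01% and 7.47% in D395A. Over all 9 light-strand genes, 0.573% of mitochondrial counts lay on the light strand in WT replicate 1 (exact 95% interval 0.532 to 0.616) and 0.691% in WT replicate 2 (0.654 to 0.730). The D395A libraries had 2.25% (2.17 to 2.32) and 1.73% (1.67 to 1.78). Groups did not overlap in any of these measures.

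Among the light-strand transfer RNA genes, the glutamine gene mt-Tq and the proline gene mt-Tp give the comparison least shaped by the filter. mt-Tq was at 1.20 and 1.77 CPM for WT against 11.3 and 9.46 CPM for D395A, a log2 fold change of 2.76 ± 0.22 (SE; edgeR adjusted p = 5.15e-08). For mt-Tp, 22 and 32 counts in WT faced 145 and 139 in D395A, a log2 fold change of 2.42 ± 0.25 (SE; edgeR adjusted p = 5.87e-07). In both genes the D395A libraries lay above the WT libraries by more than the spread within either genotype.

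The genes for alanine, asparagine, cysteine and tyrosine transfer RNAs (mt-Ta, mt-Tn, mt-Tc and mt-Ty) form a cluster from 5018 to 5326 on chrM between mt-Tw and mt-Co1. mt-Tn had 0 and 1 counts in WT and 55 and 38 in D395A, a depth-corrected ratio of 93.2 with a 95% counting interval from 16.3 to 3720. mt-Tc had 1 and 0 counts against 46 and 38, a ratio of 84.2 (14.7 to 3364). mt-Ty had 0 and 3 against 82 and 86, a ratio of 56.1 (18.9 to 275). These 3 genes were close to absent from the WT libraries and had 38 or more counts in each D395A library, and their ratios are known only to within wide limits. mt-Ta, at the other side of the cluster, was already present in WT, with 0.598 and 0.537 CPM against 4.87 and 2.45 CPM. The serine gene mt-Ts1 had 13 and 7 counts in WT and 129 and 179 in D395A, a log2 fold change of 3.92 ± 0.29 (SE). That value was 4.65 without WT replicate 1 and 3.29 without WT replicate 2. Since mt-Ts1 was over the filter in only 1 WT library, its call is a description. The glutamate gene mt-Te, which directly follows mt-Nd6 in position, had 5 and 4 against 40 and 45 counts.

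These counts are of fragments over genes of about the length of a transfer RNA, and mature transfer RNA cannot be told from longer precursor or non-coding RNA of the same strand. The library kit keeps strand, but no source used here says whether the counting used it. Without it, RNA of the opposite strand over the same positions would be counted too. Across the whole table, 203 tested genes had over 90% of their exonic bases under an exon of the opposite strand, with a median log2 fold change of 5.26 and 76.4% called higher. mt-Nd6 had 14 overlapped bases and mt-Tq and mt-Ts1 had 3 each, and reads of the opposite strand beyond annotated exons could not be seen in these files. Their part was not tested.

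**Figure D2:**
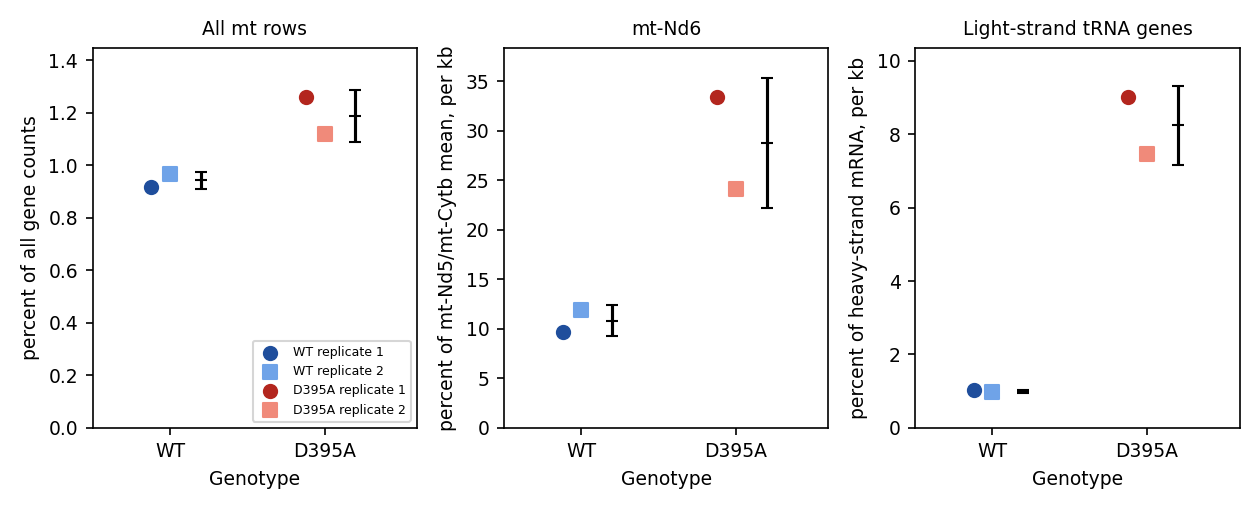
Share of all counts on mitochondrial rows (left), mt-Nd6 as a percentage of the mean of mt-Nd5 and mt-Cytb per kilobase (middle), and light-strand transfer RNA genes as a percentage of heavy-strand messenger RNAs per kilobase (right), with 1 point a library and the mean ± SD of each genotype beside the points. The D395A libraries lie above the WT libraries in each panel, with the widest separation in the light-strand transfer RNA genes, at 9.01% and 7.47% against 1.02% and 0.970%.

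Of the 14 heavy-strand transfer RNA genes, 3 were over the filter in both WT libraries and were called higher, beside 36.8% of all tested genes. Summed over all 14, heavy-strand transfer RNA genes stood at 20.1 and 22.9 CPM for WT against 35.6 and 35.1 CPM for D395A, a 1.64-fold difference of means. The tryptophan gene mt-Tw made up most of this level, with 218 and 355 counts in WT and 325 and 478 in D395A (log2 fold change 0.50 ± 0.10, SE; edgeR adjusted p = 4.14e-04). mt-Tm (methionine) had a log2 fold change of 0.87 ± 0.25 (SE; edgeR adjusted p = 0.00654) and mt-Tt (threonine) of 0.97 ± 0.33 (SE; edgeR adjusted p = 0.0157). The mt-Tm call was lost without WT replicate 2 (edgeR adjusted p = 0.0504) and with DESeq2 (adjusted p = 0.114). The mt-Tt call was lost without WT replicate 1 (edgeR adjusted p = 0.121), without D395A replicate 2 (edgeR adjusted p = 0.164) and with DESeq2 (adjusted p = 0.207). Of these 3 calls, that of mt-Tw held under every setting tried. The isoleucine gene mt-Ti, which shares 3 bases with mt-Tq on the other strand, had 2 and 7 counts in WT and 28 and 40 in D395A. mt-Tl2, a leucine gene, had no count in WT and 16 in each D395A library, at least 10.7-fold higher against a floor of 3 counts over the WT group. Both passed the filter only through D395A, so their calls are not given as support.

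The other 9 heavy-strand transfer RNA genes did not pass the filter. mt-Tf, mt-Tg and mt-Tr had no count in any library. mt-Tv, mt-Tl1, mt-Td and mt-Tk had at most 4 counts in a library, too few to show a difference at this depth. mt-Th had 0 and 0 counts in WT and 8 and 2 in D395A, and mt-Ts2 0 and 0 against 4 and 1. Those 2 genes sit beside mt-Tl2, between mt-Nd4 and mt-Nd5. The 3 adjacent genes were all without a count in both WT libraries and had counts in both D395A libraries. With so few counts in mt-Th and mt-Ts2, and mt-Tl2 tested only through D395A, this is a description.

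Among heavy-strand messenger RNAs the levels per kilobase spanned from 13.6 to 2362 CPM in WT. mt-Co1, the catalytic subunit of cytochrome c oxidase, was highest with 2362 ± 85.3 CPM per kilobase (SD, n = 2), followed by mt-Nd1 with 1374 ± 25.7, mt-Cytb with 1161 ± 22.7, mt-Nd5 with 866 ± 37.0, mt-Nd2 with 741 ± 67.7 and mt-Nd4 with 522 ± 30.4. Each of these 6 lay above the next in both WT libraries. Below them came mt-Co2 with 172 ± 31.6, mt-Co3 with 140 ± 26.2, mt-Atp6 with 69.9 ± 25.5, mt-Nd4l with 56.0 ± 17.6, mt-Atp8 with 22.9 ± 1.21 and mt-Nd3 with 13.6 ± 1.38 CPM per kilobase. For mt-Co2, mt-Co3, mt-Atp6, mt-Nd4l and mt-Nd3, more counts lay on chromosome 1 rows taken as their copies, described below. In WT, mt-Co2 had a mean of 118 CPM on its own row and 349 CPM with its copy, and mt-Co3 110 and 377 CPM. The order given here thus holds for the mitochondrial rows only. The ranges over the WT libraries overlapped for mt-Co2 and mt-Co3, for mt-Co3 and mt-Nd6 (110 ± 19.3), and for mt-Atp6 and mt-Nd4l. Within each WT library, mt-Co2 was above mt-Co3 and mt-Atp6 above mt-Nd4l, while mt-Co3 was above mt-Nd6 in WT replicate 1 only. In D395A the order was the same at the top and the bottom, and mt-Nd6 with 353 ± 100.4 CPM per kilobase stood in seventh place, above mt-Co2 and mt-Co3, while mt-Nd2 with 1082 ± 77.1 stood above mt-Nd5 with 936 ± 34.6. The ranges of mt-Atp8 and mt-Nd3 overlapped there, with mt-Atp8 above mt-Nd3 within each D395A library.

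**Figure D3:**
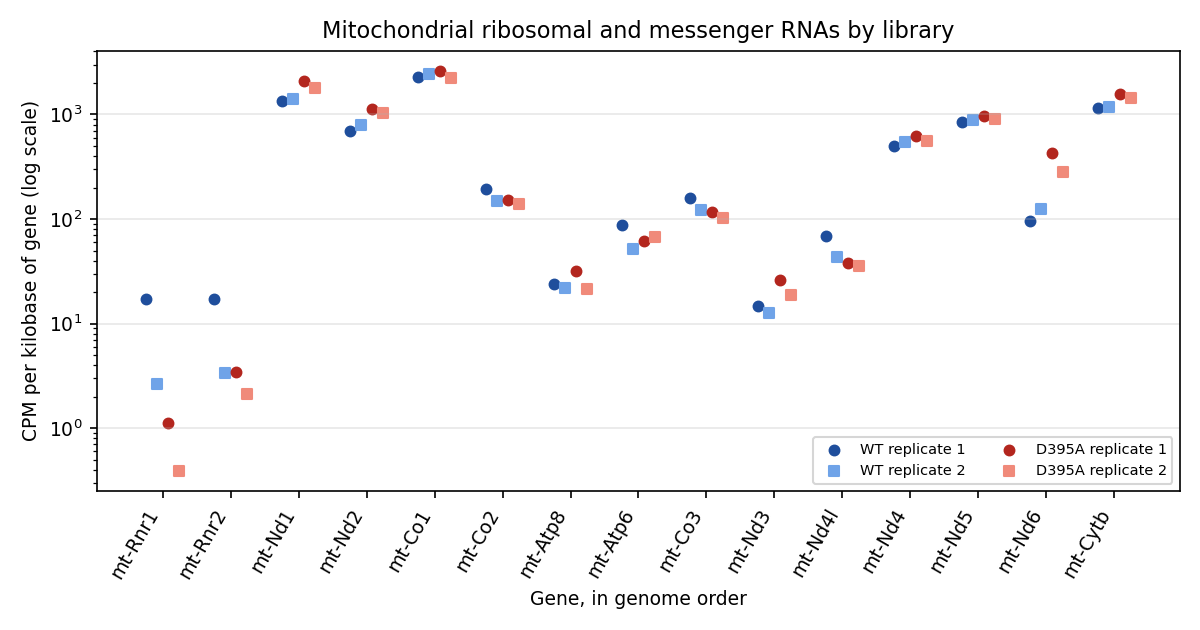
Level of the 2 ribosomal and 13 messenger RNAs in each of the 4 libraries, in CPM per kilobase of gene on a log axis, in genome order. Levels are those of the mitochondrial rows, without counts on the chromosome 1 copies. The 6 most abundant messenger RNAs lie above the others in every library, WT replicate 1 stands apart for both ribosomal RNAs, and mt-Nd6 is higher in both D395A libraries.

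Complex I takes electrons from NADH, and of its 6 heavy-strand subunits mt-Nd1 and mt-Nd2 were called higher in D395A under every setting tried. mt-Nd1 was at 1298 and 1333 CPM for WT against 1977 and 1705 CPM for D395A (log2 fold change 0.48 ± 0.09, SE; edgeR adjusted p = 1.95e-04). mt-Nd2 was at 720 and 819 against 1180 and 1067 CPM (0.55 ± 0.09, SE; edgeR adjusted p = 4.78e-05). Both groups were well apart for these 2 genes, which lie next to each other in the first part of the heavy-strand transcript. mt-Nd3 was at 5.08 and 4.40 against 9.05 and 6.54 CPM (0.71 ± 0.20, SE; edgeR adjusted p = 0.00496), with an adjusted p of 0.0701 in DESeq2. mt-Nd4 was at 690 and 750 against 863 and 776 CPM (0.19 ± 0.08, SE), with an edgeR adjusted p of 0.0491 that rose to 0.432 without WT replicate 1, to 0.0989 without WT replicate 2 and to 0.0757 with a replicate block. mt-Nd5, with 1533 and 1628 against 1753 and 1663 CPM, was not called (0.11 ± 0.08, SE; edgeR adjusted p = 0.234), although its libraries did not overlap. mt-Nd4l went the other way, from 20.3 and 12.9 CPM in WT to 11.3 and 10.6 CPM (-0.58 ± 0.17, SE; edgeR adjusted p = 0.00772). The mt-Nd4l call was lost without WT replicate 1 (log2 fold change -0.25) and with DESeq2 (adjusted p = 0.0535).

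mt-Cytb, the cytochrome b of complex III, was at 1310 and 1347 CPM for WT against 1808 and 1633 CPM for D395A, a log2 fold change of 0.37 ± 0.08 (SE; edgeR adjusted p = 0.00103). The subunits of complex IV, which passes electrons to oxygen, were not higher. mt-Co1 was at 3556 and 3743 against 4041 and 3476 CPM, with overlapping groups (0.04 ± 0.10, SE; edgeR adjusted p = 0.716). mt-Co2 was at 133 and 103 against 105 and 95.8 CPM and was called lower although its groups overlapped (-0.23 ± 0.10, SE, with an edgeR adjusted p of 0.0467). That call was lost without WT replicate 1 (log2 fold change -0.04), with DESeq2 (adjusted p = 0.136) and with limma-voom (adjusted p = 0.0744). It was also lost with upper quartile scaling (edgeR adjusted p = 0.0780) and with scaling on genes with no exon on the opposite strand (edgeR adjusted p = 0.131). mt-Co3 was at 125 and 95.5 against 91.8 and 80.9 CPM (-0.35 ± 0.10, SE; edgeR adjusted p = 0.00689), which became an edgeR adjusted p of 0.216 without WT replicate 1. The 2 subunits of complex V, the ATP synthase, were not called. mt-Atp8 was at 4.86 and 4.51 against 6.54 and 4.41 CPM (0.20 ± 0.21, SE), and mt-Atp6 at 59.8 and 35.3 against 41.8 and 45.3 CPM (-0.10 ± 0.16, SE). They overlap by 43 bases on the same strand, as mt-Nd4l and mt-Nd4 do by 7, so that reads there could have gone to either gene.

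The messenger RNAs called lower lie in a stretch that has a copy in the nuclear genome. Chromosome 1 carries 7 annotated genes on the minus strand, from 24611535 to 24616197 (mm10, 4663 bases), whose order and lengths follow those of mt-Co1 (the end), mt-Co2, mt-Atp6, mt-Co3, mt-Nd3, mt-Nd4l and mt-Nd4 (the start). The pairing was made from order and length after the values were seen, since no genome sequence was at hand. Counts on the chromosome 1 row exceeded those on the mitochondrial row in every library for 5 of the 7 pairs. For mt-Co2, its copy Gm28661 held 59.8% of the pair's counts in WT replicate 1, 72.1% in WT replicate 2, and 72.6% and 71.9% in D395A. For mt-Atp6 and Gm10925 the shares were 70.7% and 85.6% in WT and 86.0% and 83.4% in D395A. mt-Co3 with Gm28437 gave 64.6% and 76.3% against 75.5% and 76.4%, and mt-Nd4l with Gm10222 gave 61.1% and 74.9% against 77.5% and 78.0%. WT replicate 1 thus had the lowest share on chromosome 1 in these pairs, and WT replicate 2 was close to the D395A libraries. The widest exact 95% interval was that of mt-Nd3 with Gm28438 in WT replicate 1, from 66.6% to 78.0%. For mt-Co1 and mt-Nd4, only part of which has a copy, the share was between 4.46% and 16.7%.

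Reads from such copies and from the mitochondrial genome can be assigned to either, so the values of these 7 members are uncertain. With each pair summed, a setting chosen after seeing the data, the 3 lower calls were lost. mt-Co2 with its copy had a log2 fold change of 0.049 (edgeR adjusted p = 0.575), mt-Co3 of -0.07 (edgeR adjusted p = 0.420) and mt-Nd4l of -0.08 (edgeR adjusted p = 0.348). Summed, mt-Atp6 (0.34 ± 0.08, SE; edgeR adjusted p = 0.00193), mt-Nd3 (0.94 ± 0.13, SE; edgeR adjusted p = 1.86e-05) and mt-Nd4 (0.22 ± 0.08, SE; edgeR adjusted p = 0.0271) were called higher. The 3 lower calls among heavy-strand messenger RNAs were lost both with the copies summed and without WT replicate 1, which also ended the higher call of mt-Nd4. With the pairs summed, 6 heavy-strand messenger RNAs were called higher. mt-Nd1, mt-Nd2, mt-Nd5, mt-Cytb and the light-strand genes other than mt-Ts1 lie outside the copied stretch. mt-Ts1, at 6870 to 6938 between mt-Co1 and mt-Co2, lies within it and has no row of its own among the 7 on chromosome 1. The same holds for mt-Atp8, at 7766 to 7969, and for the transfer RNA genes mt-Td, mt-Tk, mt-Tg and mt-Tr. The part of read assignment to the copy in the low or absent counts of these genes and in the mt-Ts1 counts was not tested.

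**Figure D4:**
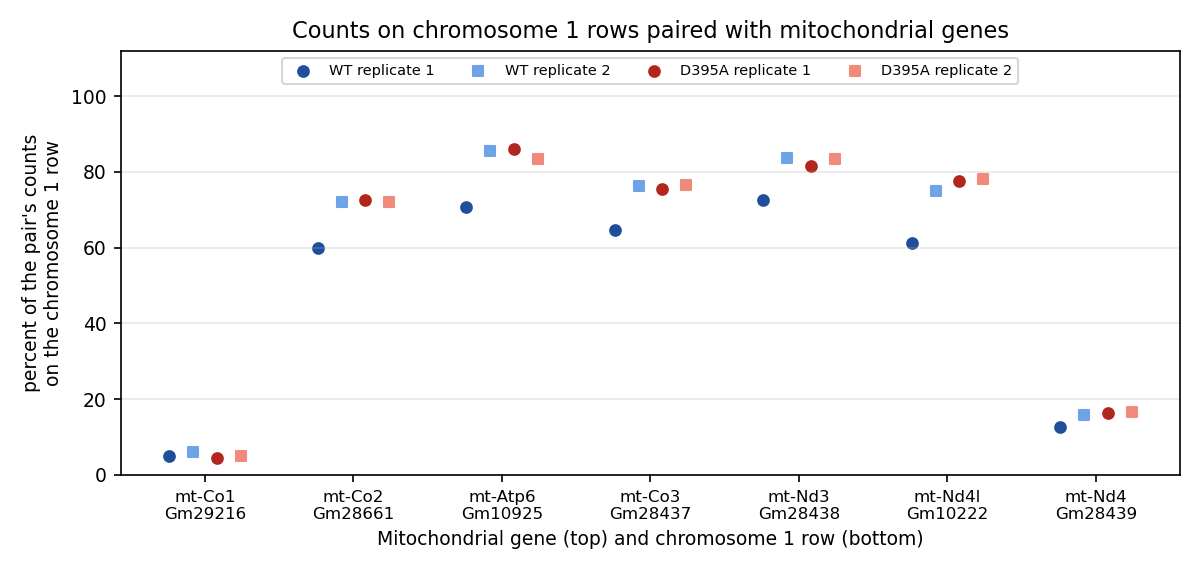
Percentage of the counts of each pair that lay on the chromosome 1 row (vertical axis) for 7 mitochondrial genes and their nuclear copies, with 1 point a library. In mt-Co2, mt-Atp6, mt-Co3, mt-Nd3 and mt-Nd4l, WT replicate 1 lies between 59.8% and 72.6% and the other 3 libraries lie higher, up to 86.0%.

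Ribosomal RNA had been removed from the total RNA with a depletion kit, so the levels of mt-Rnr1 and mt-Rnr2, the RNAs of the small and large mitochondrial ribosomal subunits, are what the depletion left. Both were called lower in D395A by the edgeR test. The mt-Rnr2 call was lost with DESeq2 (adjusted p = 0.154) and with limma-voom (adjusted p = 0.0820). mt-Rnr1 had 221 and 47 counts in WT and 14 and 7 in D395A (log2 fold change -3.76 ± 0.76, SE; edgeR adjusted p = 4.78e-04), with no overlap. mt-Rnr2 had 368 and 100 against 71 and 63 counts, or 27.5 and 5.37 against 5.40 and 3.35 CPM, so that WT replicate 2 lay among the D395A libraries (-1.88 ± 0.53, SE; edgeR adjusted p = 0.00523). Without WT replicate 1, mt-Rnr2 had a log2 fold change of -0.33 (edgeR adjusted p = 0.308), and mt-Rnr1 went from -3.76 to -1.88, still called (edgeR adjusted p = 0.00942). mt-Rnr1 ranged from -4.63 to -1.88 with each library left out in turn. The 2 WT libraries differed in summed ribosomal RNA, 44.0 against 7.89 CPM, by more than WT replicate 2 differed from D395A, at 6.47 and 3.72 CPM. The part of depletion in these values was not tested.

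Nuclear genes of the same system were set beside these values, and each count below is to be read against the 36.8% called higher and 34.3% called lower over all tested genes. Of 10 mitochondrial transcription genes, 2 were called higher and 4 (40%) lower (median log2 fold change -0.19), a share of lower calls near that of all genes. Polrmt, at 50.2 and 49.5 CPM in WT and 51.0 and 52.9 in D395A, Tfam and Tfb2m were not called (edgeR adjusted p from 0.0952 to 0.438). The elongation factor Tefm was higher, at 28.7 ± 0.147 CPM against 20.6 ± 0.193 (SD, n = 2; log2 fold change 0.48 ± 0.09, SE; edgeR adjusted p = 1.55e-04). The terminator family gene Mterf4 was higher (0.68) and Mterf2 lower (-0.60), with 35.2% and 22.7% of their exonic bases under an exon of the opposite strand.

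Of 20 tested genes of RNA processing and decay, 5 were called higher and 8 (40%) lower (median -0.09), again near it. Pnpt1, the nuclease of the mitochondrial RNA-degrading complex, was 3.17-fold higher, at 301.4 ± 17.3 CPM against 95.1 ± 3.65 (SD, n = 2; log2 fold change 1.66 ± 0.07, SE; edgeR adjusted p = 3.74e-11). Its partner helicase Supv3l1 was not called (0.08 ± 0.07, SE; edgeR adjusted p = 0.329), and Grsf1, an RNA-binding protein of mitochondrial RNA granules, was lower (-0.59 ± 0.06, SE; edgeR adjusted p = 1.27e-06). Lrpprc was lower, at 206 ± 8.72 against 272 ± 1.03 CPM (SD, n = 2; -0.40 ± 0.06, SE; edgeR adjusted p = 5.13e-05), and Slirp, with 97.8% of its exonic bases under an exon of the opposite strand, was not called (0.18 ± 0.10, SE; edgeR adjusted p = 0.139). Differences between partners were not tested. Among 24 genes that modify mitochondrial RNA, 5 were called higher and 12 lower (median -0.18), with the pseudouridine synthase Pus1 at 0.58 and the synthase Rpusd4 at -1.21. Of 11 genes of mitochondrial DNA replication and nucleotide supply, 1 was called higher and 8 lower (median -0.55), with Top1mt, a mitochondrial topoisomerase, at 1.06 and the thymidine kinase Tk2 at -1.31.

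Subunits of the respiratory chain encoded in the nucleus were called lower more often than higher. Of 76 tested genes, 11 (14.5%) were called higher and 45 (59.2%) lower, against 36.8% and 34.3% over all tested genes, with a median log2 fold change of -0.22, and their summed level was 8801 and 8517 CPM in WT and 7939 and 7044 CPM in D395A. Fewer were called lower without WT replicate 1, a setting for which the shares over all tested genes are not given here. Of the 52 with no exon on the opposite strand, 9 (17.3%) were called higher and 28 (53.8%) lower, against 32.3% and 37.1% of all tested genes without such overlap. In complex I, 24 of 36 were called lower and 4 higher, in complex IV 6 of 11 lower and 2 higher, and in complex V 9 of 16 lower. Complexes II and III were mixed, with 2 of 4 and 4 of 9 lower and 1 and 4 higher. Examples that were lower were Ndufa7 of complex I (-0.50), Sdha of complex II (-0.56), Uqcrc1 of complex III (-0.61), Cox5a of complex IV (-0.74) and Atp5f1 of complex V (-0.45). Examples that were higher were Ndufc2 (0.53), Sdhd (0.34), Uqcrfs1 (0.83) and Cox8a (0.44). Of 77 tested genes for proteins of the mitochondrial ribosome, 34 (44.2%) were called higher and 25 (32.5%) lower (median 0.08), near the shares over all genes, with Mrpl43 at 1.41 and Mrpl45 at -1.05.

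The m6A immunoprecipitation used fragmented RNA from chromatin, and 5 of the 38823 peaks in the D395A stem cell list lay on chrM. Fold enrichment over input at the summit and its -log10 q are the authors' values, from 1 immunoprecipitated and 1 input library. The peak of strongest support spanned 3565 bases from 1 to 3565, over mt-Tf, mt-Rnr1, mt-Tv, mt-Rnr2, mt-Tl1 and most of mt-Nd1, with its summit at 1859 in mt-Rnr2, a fold of 3.28 and a -log10 q of 52.0. By p-value it stood at rank 16 of the whole list, and by width at rank 5. A peak from 5272 to 6640, with its summit in mt-Co1, had a fold of 2.70 and a -log10 q of 27.9, and a peak of 3465 bases from 11782 to 15246, over mt-Nd5, mt-Nd6, mt-Te and mt-Cytb, had a fold of 2.30 and a -log10 q of 16.9. The weaker peaks lay in mt-Nd2, from 4540 to 4879 with a fold of 2.02, and in mt-Nd4, from 10915 to 11450 with a fold of 1.81. The chrM peaks were wide and ranked high by p-value within this list, rather than strongly enriched. Their median -log10 p was 21.8 against 2.87 over the list, and the lowest -log10 q among them was 3.98, in mt-Nd2. Their median fold was 2.30 against 2.66 over the list, and their median width 1369 bases against 309.

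The 5 peaks covered 9275 bases, 60.1% of the span up to the last gene, and touched 14 of the 37 genes. Of the 13 messenger RNAs, the 7 touched by a peak had mean levels of 353 to 2433 CPM per kilobase in D395A RNA-seq, and the 6 untouched had 22.4 to 147 CPM per kilobase. On the mitochondrial rows alone, the levels of the 2 sets did not overlap. All of the 6 untouched messenger RNAs lie in the stretch without a peak from 6641 to 10914, which also holds 5 of the 7 genes with copies on chromosome 1. For those 5, the copy held a mean of 72.3% to 84.7% of the pair's counts in D395A. mt-Co2 with its copy stood at 362 CPM, against 100 CPM on its own row. Whether the 2 sets differ in level with the copies counted is thus not shown. The part of read assignment to those copies in the levels and in the lack of peaks was not tested.

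In the WT list of 48445 peaks, 0 lay on chrM, but this gives no comparison of genotypes. That list held 21 chromosome names, the autosomes and X and Y, where the D395A list held 30. Its peak numbers ran to 53814 and skipped 20 between chromosome 9 and X, the place where the D395A list has 22 peaks on chrM and unplaced sequence. Numbers are thus missing from the list at that place, and whether WT cells had chrM peaks cannot be read from the list.

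In HEK293T cells, chrM carried 44 peaks over the 6 lists, with coordinates in hg38. The lists held 10 and 9 in shGFP, 13 and 3 in shALKBH5, and 3 and 6 in shFTO, of 16211 to 22219 peaks each. Fold enrichment on chrM was low, with list medians of 1.90 to 3.34 against 7.99 to 8.53 over the whole lists, and a highest value of 4.82, in shGFP list 1. Bases covered were 6515 and 3871 in shGFP, 8405 and 1453 in shALKBH5, and 1288 and 2643 in shFTO. The 2 shALKBH5 lists lay on either side of both shGFP lists, and both shFTO lists lay below them.

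**Figure D5:**
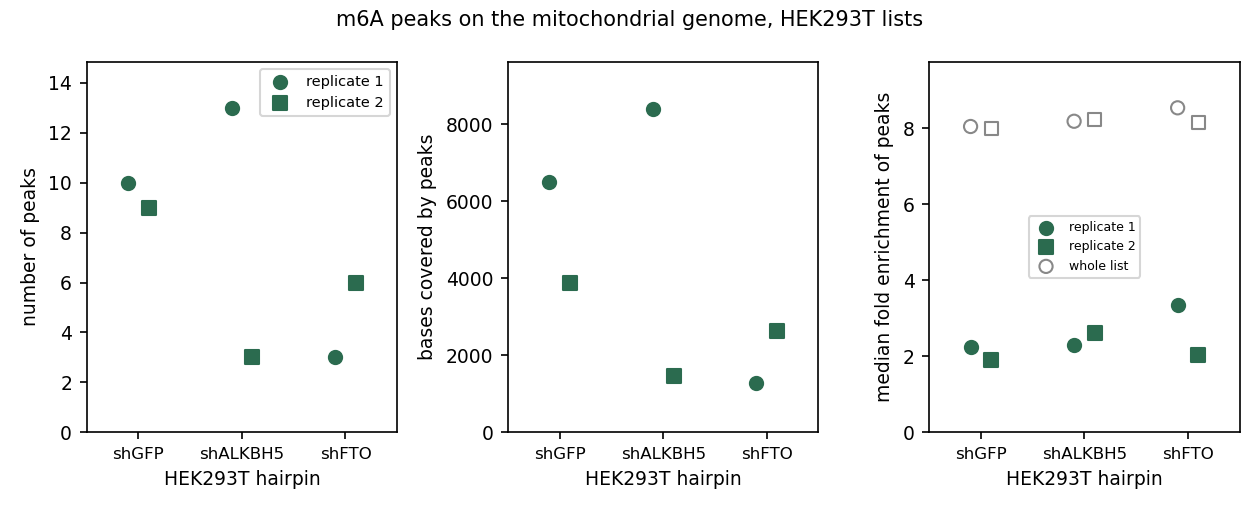
Number of m6A peaks on the mitochondrial genome (left), bases they cover (middle) and their median fold enrichment (right, filled) beside that of all peaks in the list (open) for each of the 6 HEK293T lists, grouped by hairpin. The shALKBH5 lists differ most between replicates, with 13 and 3 peaks, and the folds on the mitochondrial genome lie below those of the whole lists.

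The mean number of chrM peaks was 9.5 ± 0.71 in shGFP, 8.0 ± 7.07 in shALKBH5 and 4.5 ± 2.12 in shFTO (SD, n = 2 lists each). The difference from shGFP was -1.5 for shALKBH5 (exact two-sided permutation p = 1) and -5.0 for shFTO (p = 0.333 by the same exact test, the smallest that 2 against 2 lists allow). The shGFP lists are shared by both comparisons. For shALKBH5 the sign depended on 1 list, with a difference of 3.5 when shALKBH5 replicate 2 was left out. Neither difference can be called with these lists.

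What the lists shared was a small common core. All 44 peaks merged into 11 regions, of which 2 were in every list. Within them, 1030 bases in 3 segments were covered in all 6 lists. The segment from 1889 to 2221 had folds of 2.12 to 3.50, that from 2494 to 2915 had folds of 2.49 to 3.89, and that from 6153 to 6427 had folds of 1.69 to 2.53. In shGFP list 1 a single peak from 1767 to 3058, with its summit at 2054, covered the first and the second segment, so its fold of 3.33 stands for both. Mean folds in the first were 2.92 ± 0.58 in shGFP, 2.61 ± 0.01 in shALKBH5 and 2.81 ± 0.97 in shFTO (SD, n = 2), and in the third 2.11 ± 0.60, 2.19 ± 0.14 and 2.02 ± 0.13. These means differed by less than the spread between the shGFP lists. Summits of the third segment lay between 6329 and 6397 in all lists. Lists with fewer peaks held mostly the same positions: 99.4% or more of the chrM bases of shGFP list 2, shALKBH5 list 2 and both shFTO lists, and 86.1% of those of shGFP list 1, lay inside the peaks of shALKBH5 list 1. The human regions carry no gene names here because no human annotation was used.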

How the data were processed

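Members and gene lists were chosen with earlier results of these data known. Per the submitters' processing notes the tools were featureCounts 1.6.3, HISAT2 2.1.0, edgeR 3.22.5, Bowtie2 2.3.4.1, MACS2 2.1.1, Trimmomatic 0.33.0, SAMtools 1.7, FastQC and Picard 2.16.0, with builds mm10 and hg38. The authors deposited raw read counts per gene, with exon positions and strand per the file headers. One count column, Da95A_1, was taken as D395A replicate 1. The authors' narrowPeak lists give fold enrichment as a ratio over control, and -log10 p-values and q-values, as deposited. The WT list has 2 further columns that were not used.

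Counts were tested with edgeR 4.0.16 in R 4.3.3: filterByExpr, TMM scaling, quasi-likelihood test and Benjamini-Hochberg adjustment over 17778 genes at 0.05. CPM use scaled library sizes. The SE is the log2 fold change divided by the square root of F. All mitochondrial messenger and ribosomal RNAs, tested transfer RNAs and chrM peaks were named. From each nuclear list the member of smallest adjusted p in each direction was named, with Polrmt, Tfam, Tfb2m, Tefm, Lrpprc, Slirp, Pnpt1 and Supv3l1. Intervals are 95% Wilson or Clopper-Pearson. Overlaps count 1 base or more (bedtools 2.31.1). The fit was tested on simulated data. Alternatives were DESeq2 1.42.0, limma-voom 3.58.1, other scalings and filters, a replicate block and each replicate left out. The chromatin immunoprecipitation samples were not used here.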

Additional observations from a re-analysis of the deposited data

How the results depend on the processing

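The count of mitochondrial genes called lower, 5, was 2 with DESeq2, 3 with limma-voom and 2 with the chromosome 1 copies added, and between 1 and 6 with 1 replicate left out, the lowest without WT replicate 1; the cause was not tested. The count called higher, 19, was 16 with DESeq2 and between 17 and 20 with a replicate left out. The median log2 fold change of heavy-strand messenger RNAs ranged from 0.048 to 0.21 and that of light-strand genes, 3.22 with all libraries, from 3.09 to 3.60 with a replicate left out. Of these 9 light-strand genes, 5 were tested only through D395A, and mt-Ts1 was over the filter in only 1 WT library. The share of counts on mitochondrial rows differed by between 0.176 and 0.316 percentage points. Replicate numbers did not pair the libraries (correlation of same-numbered deviations 0.03 over genes); with a replicate block, 18 genes were called higher and 5 lower, with medians of 0.15 on the heavy strand and 3.21 on the light strand. mt-Co2 reversed to 0.049 with the copies added, and mt-Atp6, -0.10 with all libraries and -0.46 without WT replicate 2, to 0.30 without WT replicate 1 and to 0.34 with the copies added. Of 336 values of single mitochondrial genes under an alternative, 307 kept their direction and call, 22 lost the call and 4 gained one. The D395A list kept 4 of its 5 chrM peaks at a -log10 q of 5 or more, and with overlap of at least 50% of the peak the genes touched fell from 14 to 4. The shALKBH5 difference in peaks ranged from -6.5 to 3.5 and the shFTO difference from -6.5 to -3.5 with a list left out. Where 1 library is left out, its partner is taken to vary as the other genotype does. With 0 to 3 counts in WT, the light-strand transfer RNA cluster has ratios that depth leaves wide.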
